A study of Mus musculus with 20 samples.

Results

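The nuclear tRNA genes of the mouse were described by their distance to ATF4 in stressed and unstressed myoblasts. They were taken as all genes of biotype tRNA on chromosomes 1 to 19 and X in the RefSeq gene table of the assembly GRCm38.p6 (mm10), which gave 408 of 49554 genes. Their symbols name the amino acid by its letter and the anticodon by its bases, so n-TRacg2 is an arginine tRNA gene with the anticodon ACG. All 408 symbols could be read, and they covered 20 amino acids and 48 anticodons. The genes were 70 to 107 bp long with a median of 72.0 bp.

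The study profiled wild-type C2C12 cells, a mouse myoblast line, after 6 h in DMSO, the solvent, or in 100 nM thapsigargin, an inhibitor of the SERCA calcium pump that depletes the calcium store of the endoplasmic reticulum (ER) and so stresses it. CUT&Tag was used, in which an antibody against the target, here ATF4, tethers a transposase that tags the DNA beside it. The series holds 20 samples in 10 groups of 2 replicates, and the 4 ATF4 samples are represented by 1 deposited peak list per treatment, with 803 peaks in DMSO and 8619 in thapsigargin. The other 8 groups were not analysed here. There are no values per replicate, so no replicate error can be given, and the depth behind each list is unknown. The lists carry no expression values against which the cell type could be checked. A gene is called bound below if its nearer end was at most 1 kb from a peak centre. Intervals are 95% Wilson intervals, which cover counting error only. Neighbouring tRNA genes share peaks and are not replicates, so shares were compared by description and without a test.

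As background, tRNA genes are transcribed by RNA polymerase III from promoters that lie inside the gene. The A box and B box within the transcribed sequence are recognised by the factor TFIIIC, which places TFIIIB upstream of the gene, and TFIIIB in turn recruits the polymerase. ATF4 is a bZIP factor of the integrated stress response that acts at promoters and enhancers of genes transcribed by RNA polymerase II. Its own synthesis rises when ER stress or uncharged tRNAs trigger the kinases PERK or GCN2, and among its known targets are genes of amino acid synthesis and of the synthetases that charge tRNAs.

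The tRNA sequences below show the internal promoter and, for n-TRtcg5 and n-TLaag4, how close it lies to a coding gene. RefSeq promoter windows (GRCm38.p6, 250 bases before to 50 after the start of a gene) held bases of 10 tRNA genes, 4 of them whole, and 3 of the 10 genes were bound in thapsigargin. The strand was read from the box letters. Capitals mark matches to the A box letters TGGCNNAG and the B box letters GGTTCGA. The first is a whole threonine tRNA gene (chr7:35234770-35234843, minus strand) and the next a whole arginine tRNA gene in the promoter window of Polg, the mitochondrial DNA polymerase gene (chr7:79466419-79466491, plus strand). The next is 71 of the 82 bases of a leucine tRNA gene in the promoter window of Polr3e, which encodes a subunit of RNA polymerase III itself (chr7:120917528-120917598, plus strand). The last is the first 17 of 107 bases of a leucine tRNA gene (chr11:58302564-58302580, minus strand). The windows that hold n-TTagt9 and n-TLcaa3 are those of Gm38989 and Gm39827.
n-TTagt9: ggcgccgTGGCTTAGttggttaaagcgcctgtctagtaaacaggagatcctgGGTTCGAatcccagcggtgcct
n-TRtcg5: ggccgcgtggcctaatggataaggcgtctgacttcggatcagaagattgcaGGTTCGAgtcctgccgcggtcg
n-TLaag4: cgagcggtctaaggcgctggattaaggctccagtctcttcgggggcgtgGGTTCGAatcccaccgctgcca
n-TLcaa3: gtcaggaTGGCCGAGtg

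Of these 4 genes, n-TLcaa3 was bound, with a thapsigargin peak centre 149 bp away. The other three lay 115 kb (n-TTagt9), 130 kb (n-TRtcg5) and 118 kb (n-TLaag4) from the nearest thapsigargin peak centre, so the tRNA gene at the start of Polr3e had no ATF4 peak in reach.

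In thapsigargin, 63 of the 408 tRNA genes were bound (15.4%, interval 12.3% to 19.3%). Over all genes of the table the share was 8.45%, and over the protein-coding genes it was 15.1%, so the tRNA share was close to that of protein-coding genes. Among other classes of RNA genes, the share was 14.0% for the genes of the table's class misc_RNA (13 of 93, interval 8.35% to 22.5%), close to the tRNA share. It was lower in the larger classes: 21 of 1340 snoRNA genes (1.57%), 31 of 1003 snRNA genes (3.09%) and 35 of 1228 miRNA genes (2.85%) were bound, and 687 of 12697 lncRNA genes (5.41%). In DMSO 1 tRNA gene was bound (0.245%, interval 0.0433% to 1.38%), beside 0.702% of all genes and 1.29% of the protein-coding genes. The thapsigargin list is 10.7 times as long as the DMSO list. With the same number of peaks from each list, the widest ones in thapsigargin, 4 tRNA genes (0.980%) were bound in thapsigargin. No share over all genes or protein-coding genes was computed with these peaks. The count thus does not show whether tRNA genes stand out among them, and width is not a measure of peak strength.

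The median distance of a tRNA gene to the nearest peak centre was 49.7 kb in thapsigargin (quartiles 7.83 kb and 110 kb) and 1129 kb in DMSO (quartiles 373 kb and 2837 kb). For protein-coding genes the median was also 49.7 kb in thapsigargin, and it was 844 kb in DMSO. In thapsigargin 12 tRNA genes had a peak centre within 100 bp and 23 within 250 bp, while 111 were over 100 kb from any. Just inside the limit of 1 kb were n-TScga3 at 981 bp and n-TPtgg8 at 986.5 bp, and just outside were n-TAagc12 at 1003 bp and n-TKctt27 at 1022 bp.

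The 63 genes were reached by 41 peaks, 0.476% of the thapsigargin list, since 25 peaks reached 1 tRNA gene, 11 reached 2, 4 reached 3 and 1 reached 4. These peaks were 355 to 2006 bp wide with a median of 1029 bp, beside 1037 bp over the whole list. A peak lay over the gene itself for 42 of the 63 bound genes (66.7%, interval 54.4% to 77.1%), and the other 21 genes stood beside their peak. The centres of 19 of these peaks were within 1 kb of the end of a protein-coding gene as well, and 22 were farther away, 15 of them by over 5 kb. The map of the 41 peaks shows these groups side by side.

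**Figure D1:**
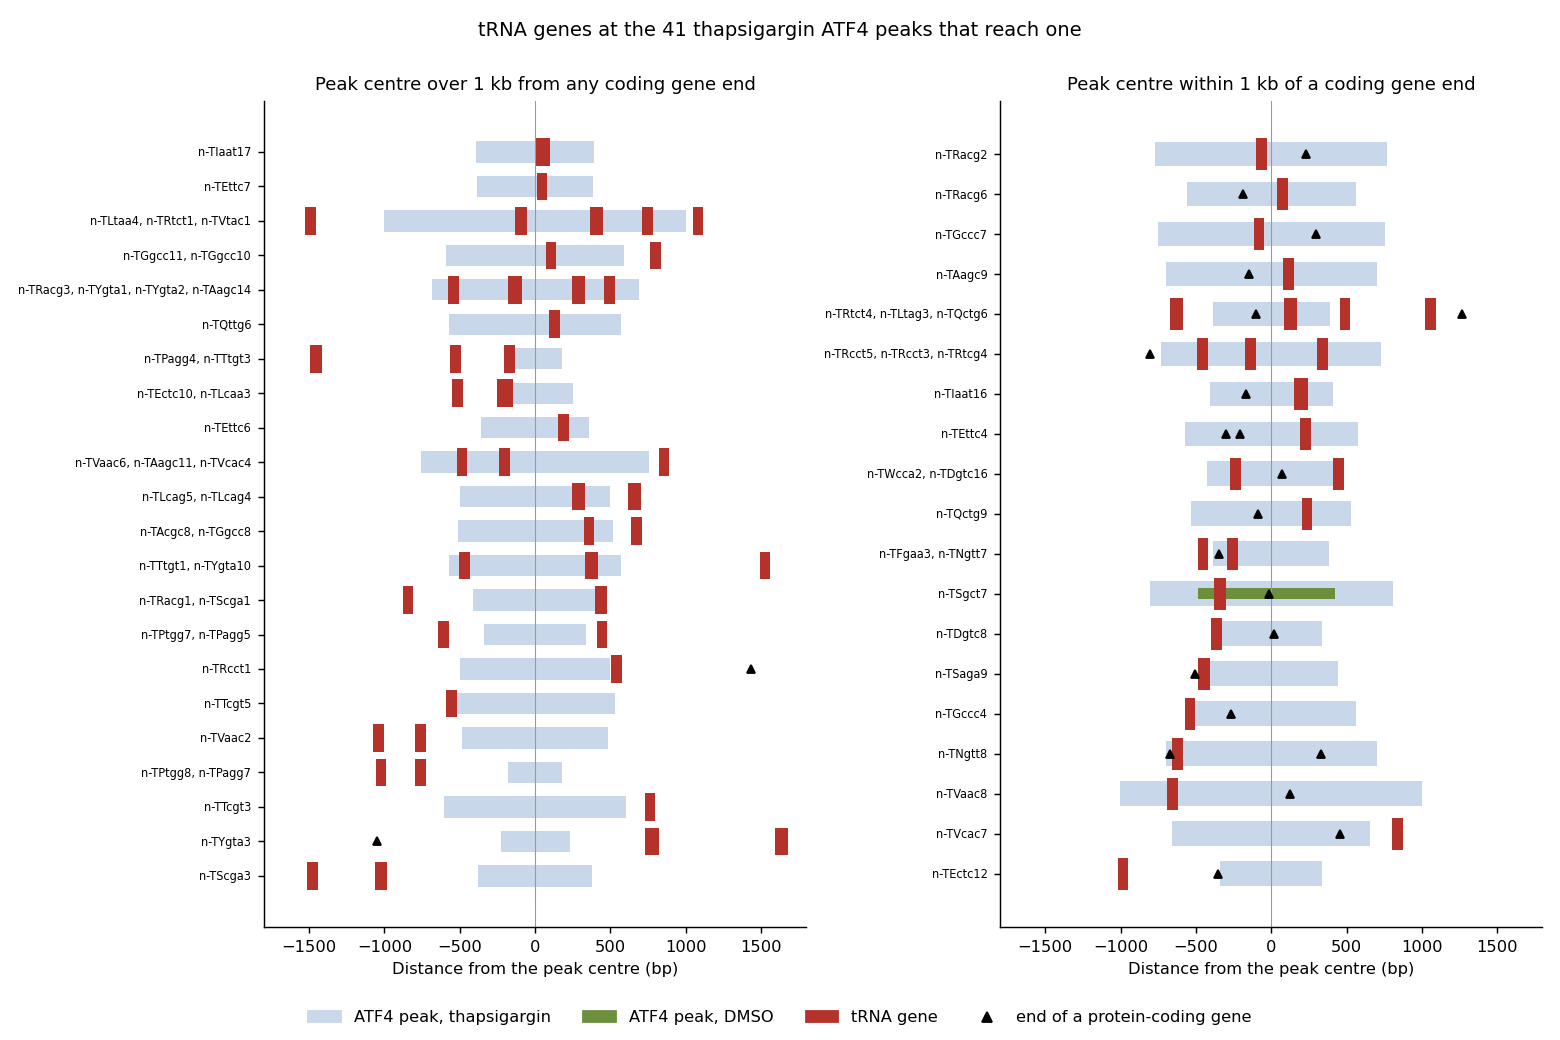
Each row is 1 of the 41 thapsigargin ATF4 peaks within 1 kb of a tRNA gene, drawn to scale around its centre (x axis, bp), with tRNA genes in red, ends of protein-coding genes as triangles and the DMSO peak in green; labels name the bound tRNA genes. The left panel has the 22 peaks over 1 kb from a coding gene end and the right panel the other 19, and a DMSO peak is present at n-TSgct7 and at no other row.

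The site bound in both treatments was n-TSgct7, a serine tRNA gene with the anticodon GCT (chr2:119046750-119046831). It stands alone, 288 bp from the start of Knl1, a gene for a kinetochore scaffold protein. The thapsigargin peak spanned chr2:119046326-119047936 (1611 bp) and was centred 300 bp from the tRNA gene and 12 bp from the Knl1 start. The DMSO peak spanned chr2:119046645-119047557 (913 bp) and was centred 270 bp from the tRNA gene. Both peaks covered the tRNA gene and the start of Knl1, so the site cannot be given to either gene by position.

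The Knl1 promoter window is shown because it was the only one of 20 windows inside tRNA-reaching peaks that held one of the searched ATF4 motifs. These were TGATGNAAT, the element of ATF4 with a C/EBP partner, TGACGTCA, the cyclic AMP response element, and TGACGCAA, each on both strands. ATTGCATCA was also searched, but it is the other strand of one form of TGATGNAAT and adds no match of its own. The window (chr2:119046869-119047168, plus strand) begins just beyond the tRNA gene, and capitals mark TGACGCAA.
Knl1: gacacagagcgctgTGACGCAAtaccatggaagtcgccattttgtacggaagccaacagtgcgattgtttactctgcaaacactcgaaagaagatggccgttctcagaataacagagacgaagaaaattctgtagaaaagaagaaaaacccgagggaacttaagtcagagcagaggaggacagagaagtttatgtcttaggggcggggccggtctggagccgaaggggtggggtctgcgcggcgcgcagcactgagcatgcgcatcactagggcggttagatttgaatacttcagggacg

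The match, at chr2:119046883-119046890, was 52 bp from the tRNA gene, 244.5 bp from the thapsigargin peak centre and 214.5 bp from the DMSO peak centre. TGACGCAA was found in 161 of all 32851 promoter windows (0.490%) and in 89 of the 2546 windows that lay wholly inside a thapsigargin peak (3.50%). TGATGNAAT was found in 0.965% of all windows and 1.26% of those inside peaks, and TGACGTCA in 1.79% and 4.91%. At least 1 of the motifs was present in 1 of the 20 windows at tRNA genes (5.00%), beside 9.47% of all windows inside peaks. The 20 windows, of 300 bases each, belong to 17 of the 41 peaks. Letters of these 17 peaks outside the windows, and all letters under the other peaks, were not searched.

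A second tRNA gene came near a DMSO peak. n-TAagc8, an alanine tRNA gene (chr4:132516008-132516079), lay 5.55 kb from Sesn2, a stress-induced regulator of mTORC1. Its nearest peak centre was 1443 bp away in thapsigargin and 1963.5 bp away in DMSO, so it did not count as bound. For the remaining bound genes the nearest DMSO peak centre lay 27.8 kb away or more, with n-TLcaa3 the nearest.

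A larger share of tRNA genes was bound close to coding genes than far from them. Of the 49 tRNA genes within 1 kb of the end of a protein-coding gene, 26 were bound in thapsigargin (53.1%, interval 39.4% to 66.3%). The share was 7 of 59 (11.9%) at 1 to 5 kb, 24 of 161 (14.9%, interval 10.2% to 21.2%) at 5 to 20 kb and 6 of 139 (4.32%, interval 1.99% to 9.10%) beyond 20 kb. Away from coding genes, at over 5 kb, 30 of 300 tRNA genes were bound (10.0%, interval 7.09% to 13.9%). At the same distance the share was 2 of 1064 for snoRNA genes (0.188%), 18 of 850 for snRNA genes (2.12%), 6 of 809 for miRNA genes (0.742%) and 225 of 8852 for lncRNA genes (2.54%, interval 2.23% to 2.89%). These differences between classes were not tested, and misc_RNA genes were not split by this distance.

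**Figure D2:**
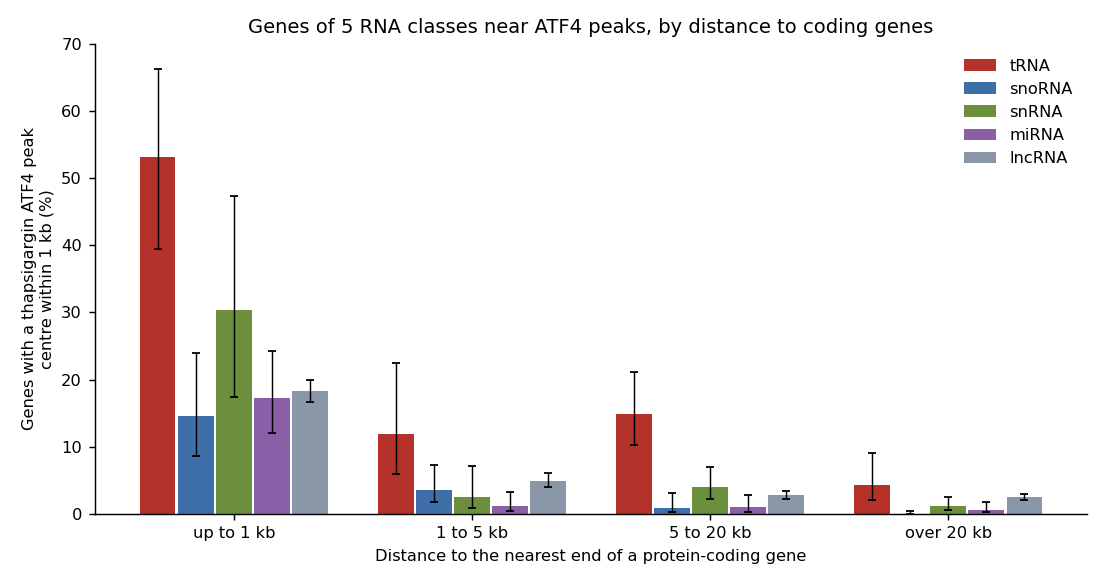
Bars give the percentage of genes with a thapsigargin ATF4 peak centre within 1 kb (y axis) for 5 RNA classes, by distance to the nearest end of a protein-coding gene (x axis); error bars are 95% Wilson intervals. The tRNA bars are the highest in each of the 4 distance groups, from 53.1% within 1 kb to 4.32% beyond 20 kb.

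Around the tRNA genes the peaks were packed into the nearest kilobase. Thapsigargin peak centres numbered 74.8 per Mb within 0.5 kb of a tRNA gene (29 peaks in 0.388 Mb) and 45.4 per Mb at 0.5 to 1 kb (13 peaks). At 1 to 2 kb there were 8.01 per Mb, at 2 to 5 kb 3.45 per Mb and at 20 to 50 kb 6.39 per Mb, beside 3.28 per Mb over the annotated span of the chromosomes. Here each peak was counted by its nearest tRNA gene, which gives 42 peaks within 1 kb in place of the 41 that were the nearest peak of a bound gene. For tRNA genes over 5 kb from coding gene ends the density was 41.3 per Mb within 0.5 kb (12 peaks), 18.6 per Mb at 0.5 to 1 kb (4 peaks) and 1.19 per Mb at 2 to 5 kb (1 peak). Around snoRNA genes at that distance from coding genes it was 0.843 per Mb within 0.5 kb, around miRNA genes 3.91 per Mb and around snRNA genes 13.8 per Mb. No such densities were computed around protein-coding or misc_RNA genes, whose bound shares were close to that of tRNA genes.

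**Figure D3:**
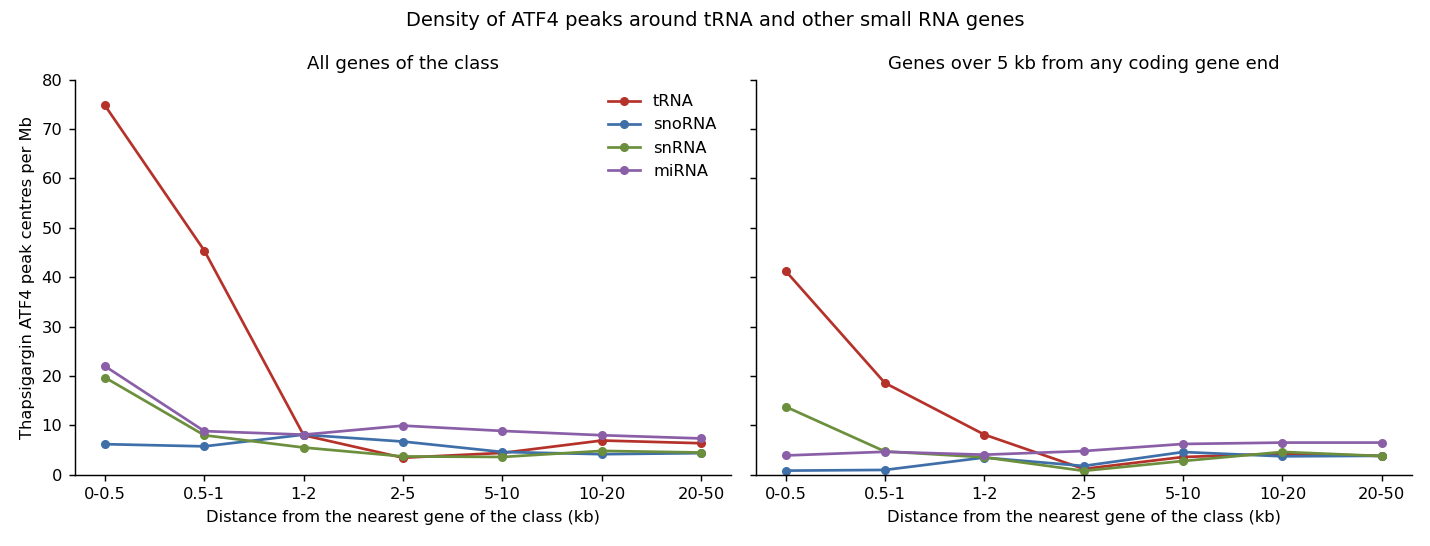
Points give thapsigargin ATF4 peak centres per Mb of sequence (y axis) at growing distances in kb (x axis) from the nearest tRNA, snoRNA, snRNA or miRNA gene, for all genes of the class (left) and for those over 5 kb from coding gene ends (right). The tRNA line starts at 74.8 per Mb on the left and 41.3 per Mb on the right and falls to 8.01 and 8.14 per Mb at 1 to 2 kb.

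The tRNA gene closest to a peak centre was n-TIaat17, an isoleucine gene (chr17:83861944-83862036). Its peak (chr17:83861546-83862334, 789 bp) had its centre at 4 bp from it, and the nearest coding gene end, that of Haao, was 12963 bp away. The glutamate gene n-TEttc7 (chr7:58399315-58399386) was similar, with a peak of 766 bp centred 11.5 bp from it and 257 kb from the nearest coding gene end, that of Atp10a. The glutamate gene n-TEttc6 (chr14:76152774-76152845) stood alone as well, 154 bp from the centre of a 711 bp peak and 15.4 kb from Nufip1. These are peaks over lone tRNA genes that had no coding gene end within reach.

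The other lone bound genes over 1 kb from a coding gene end were 1 glutamine and 2 threonine genes. The glutamine gene n-TQttg6 (chr11:95859172-95859243) was covered by its peak, 94.5 bp from the centre, and lay 4.32 kb from B4galnt2. The threonine gene n-TTcgt5 (chr16:13437323-13437394) was 520 bp from the centre of a 1063 bp peak that only its edge overlapped, and n-TTcgt3 (chr11:79704650-79704721) was 727.5 bp from a peak centre and 124 bp outside the peak. In all, the 38 bound tRNA genes whose peak reached no coding gene end made up 60.3% of the bound genes (interval 48.0% to 71.5%). Coding gene ends were the outer bounds of each gene, so other starts of a coding gene were not counted. The unbound n-TRtcg5, for example, lay in the promoter window of Polg but 1420 bp from the nearest coding gene end. Starts of genes that are not protein-coding were not counted here, and some of these peaks held one. The promoter window of 4833417C18Rik lay inside the peak at n-TQttg6 and that of Gm39827 inside the peak at n-TEctc10 and n-TLcaa3. Those of BB557941 and 4930555B11Rik lay inside the peak at n-TAcgc8 and n-TGgcc8.

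Where a tRNA gene next to a coding gene end was bound, the coding gene end usually had a peak too. For 25 of the 49 tRNA genes the neighbouring coding gene end had a peak centre within 1 kb, and all 25 tRNA genes were bound. This agreement is largely built in, because both calls use a 1 kb window and the tRNA genes were taken within 1 kb of the coding end. A single peak can thus make both calls. The remaining bound one, n-TScga3 near the 3' end of Per1, had no peak at the coding end. For n-TRcct1 the peak nearest to the tRNA gene was 1432.5 bp from Fmc1, so this pair did not share it. Of the tRNA genes beside a start 19 of 36 were bound, and of those beside a 3' end 6 of 9. Counted by coding gene, 17 of 31 starts with a tRNA gene within 1 kb had a peak (54.8%, interval 37.8% to 70.8%), beside 15.0% of 17274 coding gene starts. Of 5 such 3' ends 2 had a peak, beside 0.967% of all 3' ends. Whether these shares differ beyond chance was not tested.

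Of 22 lone tRNA genes within 1 kb of a coding gene start, 14 were bound, 7 of them within 250 bp of the peak centre and 7 farther away. The other 8 were 1.10 kb to 252 kb from the nearest peak centre. The arginine gene n-TRacg2 (chr9:123529425-123529497) was 26 bp from the centre of a 1543 bp peak that also covered the start of Sacm1l, a phosphoinositide phosphatase gene. The glycine gene n-TGccc7 (chr17:25875088-25875158) was 45.5 bp from the centre of a 1504 bp peak at Mettl26, and the alanine gene n-TAagc9 (chr19:3576263-3576335) 80.5 bp from that of a 1400 bp peak at Ppp6r3. Others stood at Wbp4 (n-TEttc4, 190.5 bp), Rab11a (n-TQctg9, 201 bp) and Plekhg2 (n-TIaat16, 152 bp). Farther from their peak centres were n-TDgtc8 at Lta4h (326.5 bp), n-TRcct1 near Fmc1 (502.5 bp) and n-TGccc4 at Tia1 (505.5 bp). The last were n-TNgtt8 at Pcgf2 (583.5 bp), n-TVaac8 at Mynn (621.5 bp) and n-TEctc12 at Acp6 (948.5 bp). A further lone gene, n-TSaga9, was 406 bp from its peak centre inside 2610301B20Rik, whose strand is not in the table.

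The distance between such a tRNA gene and a coding start can be read in the promoter windows of Prmt5, which encodes an arginine methyltransferase, and Ndufs7, a subunit gene of respiratory complex I. Capitals mark the tRNA gene. The Prmt5 window (chr14:54517421-54517720, minus strand) holds 25 of the 73 bases of the arginine gene n-TRacg6, whose peak centre was 40.5 bp from it. The Ndufs7 window (chr10:80249199-80249498, plus strand) holds 34 of the 74 bases of the asparagine gene n-TNgtt7, 221 bp from its peak centre. Neither window held the motifs above.
Prmt5: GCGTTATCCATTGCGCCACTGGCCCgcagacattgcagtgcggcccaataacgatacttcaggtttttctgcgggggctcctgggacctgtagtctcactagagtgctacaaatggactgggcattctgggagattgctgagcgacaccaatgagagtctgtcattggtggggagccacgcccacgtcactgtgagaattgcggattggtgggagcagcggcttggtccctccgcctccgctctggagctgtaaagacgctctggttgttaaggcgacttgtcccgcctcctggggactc
Ndufs7: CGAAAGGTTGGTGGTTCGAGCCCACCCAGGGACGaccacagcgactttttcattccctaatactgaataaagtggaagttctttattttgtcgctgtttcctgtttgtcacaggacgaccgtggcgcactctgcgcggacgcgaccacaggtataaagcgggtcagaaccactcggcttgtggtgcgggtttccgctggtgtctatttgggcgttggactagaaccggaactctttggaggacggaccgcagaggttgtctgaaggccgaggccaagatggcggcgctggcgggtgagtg

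A neighbouring coding gene was no sure sign of a peak. The other 23 tRNA genes within 1 kb of a coding gene end were 1.02 kb to 429 kb from the nearest peak centre, and 15 of them were over 10 kb away. They included n-TLaag4 at Polr3e, n-TMcat11 at Ilf2 (33.1 kb) and n-TYgta9 and n-TAagc15 at Agbl5 (160 kb each). Inside coding genes 7 of 34 tRNA genes were bound (20.6%, interval 10.3% to 36.8%), and outside them 56 of 374 (15.0%).

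Joined at gaps of up to 10 kb, the tRNA genes formed 176 groups, of which 111 were single genes and 65 clusters of 2 or more. In thapsigargin 40 of the 176 held a bound gene (22.7%, interval 17.2% to 29.5%). Among single genes 21 of 111 were bound (18.9%, interval 12.7% to 27.2%), in clusters of 2 to 4 genes 29 of 108 (26.9%, interval 19.4% to 35.9%) and in clusters of 5 or more 13 of 189 (6.88%, interval 4.06% to 11.4%). Counted by gene, large clusters thus had the lowest share. Counted by cluster, which takes account of shared peaks, they did not: 14 of 43 clusters of 2 to 4 genes (32.6%, interval 20.5% to 47.5%) and 5 of 22 clusters of 5 or more (22.7%, interval 10.1% to 43.4%) held a bound gene. A cluster with more genes over a longer span can hold a bound gene more easily, so the shares by cluster do not compare sizes like for like.

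The largest clusters had no bound gene. The cluster with the most genes, 22 cysteine tRNA genes on chromosome 6 (chr6:48244316-48317586), was 25.3 kb from the nearest peak centre. The 2 clusters of 15 genes, on chromosome 1 (chr1:171064164-171081946, with aspartate, glutamate, glycine and leucine genes) and chromosome 13 (chr13:21907111-21940995), were 68.4 kb and 81.0 kb away. In 17 of the 22 clusters of 5 or more genes, with 148 genes, none was bound, and no peak was nearer than 3.87 kb. On chromosomes 1, 3 and 6, 0 of 25, 0 of 15 and 0 of 41 genes in such clusters were bound. Many tRNA genes are near-identical copies, and how the authors treated reads that fit several copies is not given in the sources used here. A lack of peaks and a lack of placed reads thus cannot be told apart in these clusters. The 4 genes at chr11:8361-11797, counted as unbound, were 3382 kb from the nearest thapsigargin peak centre. They share their amino acids and span (3.44 kb) with the group at chr11:48853619-48857055. Whether reads could be placed at either was not tested.

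**Figure D4:**
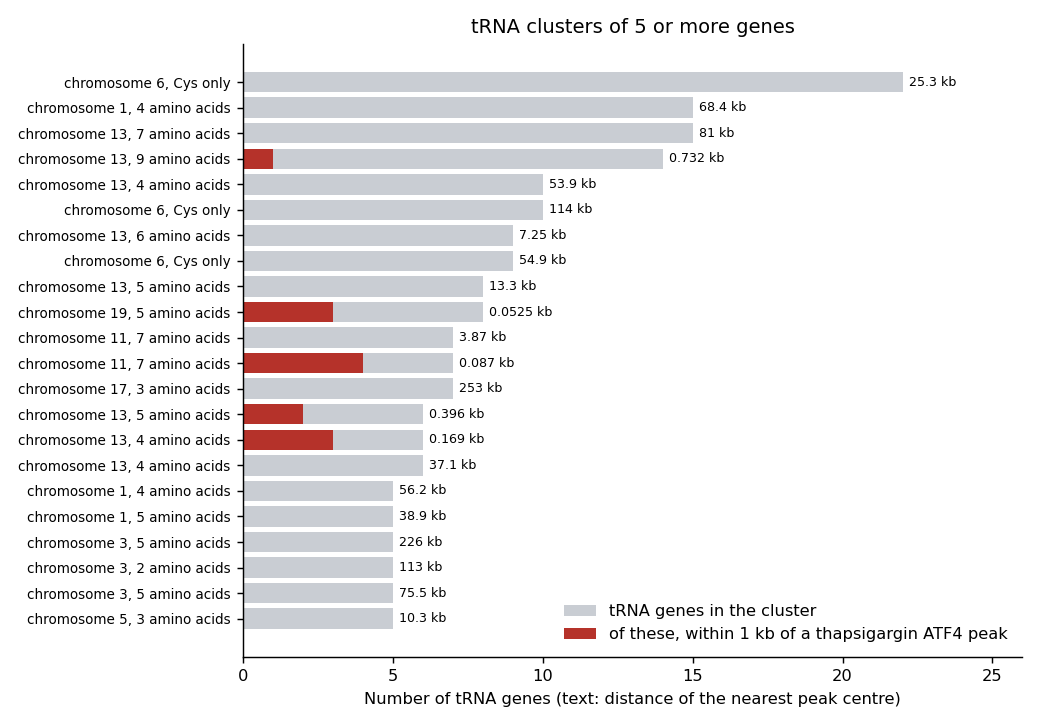
Bars give the number of tRNA genes (x axis) in each of the 22 clusters of 5 or more genes, with those bound in thapsigargin in red and the distance from the cluster to the nearest peak centre as text. Only 5 clusters have a bound gene, and the largest, with 22 cysteine genes, has none.

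Small clusters could be bound whole. In 10 clusters of 2 or more genes every gene was bound. At chr3:19627959-19629067 a single peak of 1374 bp (chr3:19627849-19629222) covered all 4 genes, n-TRacg3, n-TYgta1, n-TYgta2 and n-TAagc14, for arginine, tyrosine and alanine, and the nearest coding gene end was 15.3 kb away. At chr11:115412981-115413851 a peak of 1459 bp covered the arginine genes n-TRcct5, n-TRcct3 and n-TRtcg4 near the 3' end of Mrpl58. Pairs were bound at n-TPtgg7 and n-TPagg5 and at n-TPtgg8 and n-TPagg7 for proline, n-TLcag5 and n-TLcag4 for leucine, and n-TGgcc11 and n-TGgcc10 for glycine inside Vac14.

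In 5 larger clusters some of the genes were bound. The cluster at chr11:69110465-69125248, beside Per1 and Hes7, had 4 of 7 genes bound, n-TRtct4, n-TLtag3 and n-TQctg6 at 1 peak and n-TScga3 at another. At chr19:12002236-12012338 the widest of the 41 peaks (2006 bp) covered n-TLtaa4, n-TRtct1 and n-TVtac1, 3 of 8 genes. On chromosome 13 the cluster at chr13:23298781-23317538 had 3 of 6 genes bound, n-TVaac6, n-TAagc11 and n-TVcac4, at 1 peak, and over the whole chromosome 7 of 105 tRNA genes were bound (6.67%). The shares of chromosomes 6 (2 of 53, 3.77%) and 1 (0 of 37) were also low, and that of chromosome 11 was 13 of 52 (25.0%).

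Within clusters, several genes lay near the middle of their peak. The nearest were the leucine gene n-TLtaa4 at 52.5 bp from the centre, the glycine gene n-TGgcc11 at 72 bp, the leucine gene n-TLtag3 at 87 bp and the tyrosine gene n-TYgta1 at 88.5 bp. They were followed by the arginine gene n-TRcct3 at 100 bp and the threonine gene n-TTtgt3 at 136 bp, whose peak was the narrowest of the 41 (355 bp). The alanine gene n-TAagc11 (169 bp) and the tryptophan gene n-TWcca2 inside Tmpo (201 bp) completed the 20 tRNA genes nearest to a peak centre.

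By amino acid, 16 of 20 had at least 1 bound gene. Arginine had the most, with 10 of 24 genes (41.7%, interval 24.5% to 61.2%) in 8 clusters, and its anticodon ACG was bound at 4 of 6 genes and CCT at 3 of 5. Tyrosine had 4 of 10 (40.0%, interval 16.8% to 68.7%), proline 5 of 17 (29.4%), valine 6 of 24 and glutamate 5 of 20 (25.0% each). Threonine had 4 of 18, leucine 5 of 26, glutamine 3 of 16, serine 4 of 22 and glycine 5 of 28. Asparagine had 2 of 13, phenylalanine 1 of 7, aspartate and isoleucine 2 of 16 each, tryptophan 1 of 8 and alanine 4 of 33. With a window of 500 bp arginine had 6 of 24 and valine 1 of 24.

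Cysteine, histidine, lysine and methionine had no bound gene. The 57 cysteine genes with a count of 0 allow a share of up to 5.26% (3 counts), and their nearest peak centre was 4.04 kb away, at n-TCgca33. For histidine (0 of 11, which allows up to 27.3%) it was 76.5 kb away, for lysine (0 of 26, up to 11.5%) 1.02 kb and for methionine (0 of 16, up to 18.8%) 1.10 kb. The numbers per amino acid are small, the intervals of most overlap, and members of 1 cluster share peaks. The limits from 3 counts take the genes as independent, while the 57 cysteine genes lie in 12 groups of neighbours, so these limits are too narrow.

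**Figure D5:**
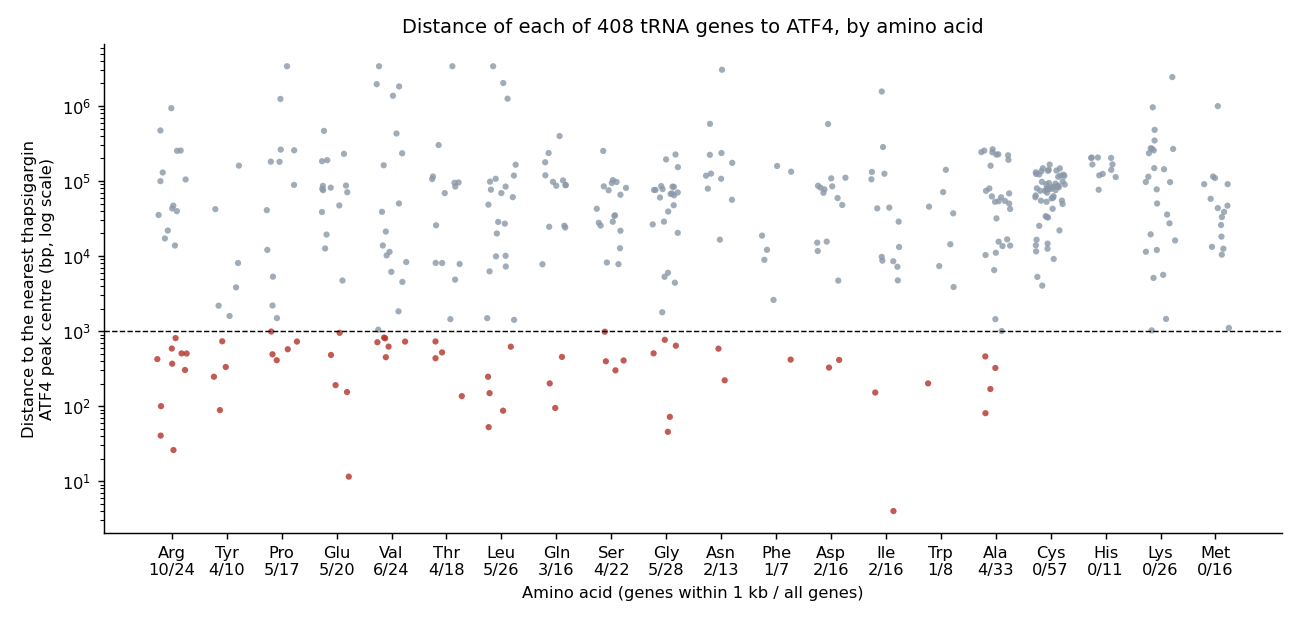
Each point is a tRNA gene, placed by the distance in bp of the nearest thapsigargin ATF4 peak centre (y axis, log scale) under its amino acid (x axis, with bound and total genes), ordered by bound share. Points under the dashed line at 1 kb are bound, with arginine (10 of 24) at the left and the 4 amino acids without a bound gene at the right.

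The synthetase that charges each tRNA was set beside its tRNA genes, since synthetase genes are known ATF4 targets. For the 13 amino acids with a synthetase gene bound in thapsigargin, 37 of 261 tRNA genes were bound (14.2%, interval 10.5% to 18.9%). For the other 7 it was 26 of 147 (17.7%, interval 12.4% to 24.7%). Cysteine and methionine had a bound synthetase gene (Cars and Mars1, each in both treatments) and no bound tRNA gene, of 57 and 16. Alanine, aspartate, glutamate, proline and arginine had bound tRNA genes while the synthetase gene was not bound, with 10 of 24 tRNA genes for arginine (Rars) and, for the shared synthetase gene Eprs, 5 of 20 for glutamate and 5 of 17 for proline. Histidine and lysine had neither.

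Longer tRNA genes were counted apart, since those with an intron are longer. Of the 22 genes over 84 bp, which were tyrosine, isoleucine, leucine and arginine genes, 9 were bound (40.9%, interval 23.3% to 61.3%), and of the 386 shorter ones 54 (14.0%, interval 10.9% to 17.8%). The split by length was chosen after the values had been seen, and the 9 include 4 tyrosine genes at 3 clusters.

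The coding genes that make and mature tRNAs were counted from 3 lists. Of 29 genes of the RNA polymerase III machinery, 11 were bound in thapsigargin (37.9%, interval 22.7% to 56.0%), beside the 15.1% of protein-coding genes. By peak width they were led by Polr3gl (1526 bp), Gtf3c2 (1423 bp) and Polr3g (1378 bp), followed by Maf1, the repressor of the polymerase (1229 bp), Gtf3c1 (1106 bp) and Polr2k (974 bp). Width says nothing of closeness: the Polr3gl peak was centred 893.5 bp from the gene end. With a window of 500 bp Polr3gl was not bound, and 10 of the 29 genes were. Polr3g and Polr3gl encode alternative forms of a polymerase subunit and the Gtf3c genes encode TFIIIC. Gtf3c2 was also bound in DMSO, with a peak centre 243.5 bp away. It was the 1 gene of this list bound there (3.45%), beside 1.29% of protein-coding genes.

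Of 26 genes of tRNA processing and export, 9 were bound in thapsigargin (34.6%, interval 19.4% to 53.8%), beside 15.1% of protein-coding genes. The widest peaks were at Tsen34 of the splicing endonuclease (1768 bp), Pop7 (1270 bp), Rpp38 (1080 bp) and Rpp14 (983 bp) of RNase P, and the exportins Xpot (1101 bp) and Xpo5 (895 bp). Of 43 tRNA modification genes, 18 were bound (41.9%, interval 28.4% to 56.7%), again beside 15.1%. Among them were Trmt5 (1509 bp), Osgep (1433 bp), Trmt10a (1091 bp), Nsun2 (1089 bp), Wdr4 (1071 bp) and Dus4l (1066 bp). In DMSO, Xpot (376.5 bp from its end) and Trmt10a (206 bp) were bound, 1 gene in each list (3.85% and 2.33%), beside 1.29% of protein-coding genes. These shares describe the lists, which were chosen with earlier results of these data known, and no test was made.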

How the data were processed

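ATF4 CUT&Tag was done on C2C12 cells after 6 h of DMSO or 100 nM thapsigargin, per the labels. The authors deposited 1 peak list per treatment, which gives chromosome, start and end without height, score or p; the sources used here do not say how the 2 replicates were combined, which peak threshold applied or whether a control library was used. Per the submitters' processing notes, the tools include MACS2 2.2.7.1, Bowtie2 and Trim Galore 0.6.10, with mm10 as build. Nothing says whether replicates came from separate cultures. Depth is unknown, and list length may depend on it.

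Distances run from the peak centre to the nearer gene end in the RefSeq table, which has no strand for tRNA genes; coordinates count from 1. The strand of a coding gene came from the promoter table. The members, the 3 gene lists and the motifs were chosen with earlier results of these data known. Named genes are those bound in DMSO, the 20 nearest to a thapsigargin peak centre, all bound single genes, the genes next to the limit, the largest and most bound clusters, and up to 6 genes per list by peak width. Genes of other clusters, unbound neighbours of coding genes and n-TAagc8 were named after their values were seen. The planned motif search of tRNA genes was made in promoter windows, as no genome was used. Values were computed in Python 3.11.15 with pandas 2.3.3 and numpy 2.4.6 and drawn with matplotlib 3.10.9, and the distance search was tested on simulated data.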

Additional observations from a re-analysis of the deposited data

How the results depend on the processing

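No paired analysis was possible because each treatment has 1 list for both replicates, which also prevents leaving out a replicate. The share of tRNA genes bound in thapsigargin (15.4%) was 10.0%, 19.4% and 21.6% with windows of 500 bp, 3 kb and 5 kb and 10.3% where the peak had to overlap the gene. It was 7.60% with the wider part of the list and 0.980% with as many peaks as in DMSO. It was 10.3% and 10.0% for tRNA genes over 1 kb and 5 kb from coding gene ends, 22.7% with one count per cluster and, in a setting added after the data were seen, 22.8% without clusters of 5 or more genes. In DMSO (0.245%) it was 0 at over 1 kb and 0 at over 5 kb from coding gene ends. The share of clusters with a bound gene (22.7%) was 16.5% at 500 bp, 11.4% with the wider part and 15.2% with gaps of up to 2 kb. Genes bound in both lists numbered 2 at 3 kb and 2 at 5 kb, in place of 1. The share of bound genes whose peak reached a coding gene end (39.7%) was 55.6% at 5 kb. Most of these settings take in fewer or more peaks or genes by construction. Of 119 alternative values 86 stayed within the interval or within 1.5 times, and of the 33 others 15 were counts for single amino acids. Peak lists alone give no depth, so an unbound gene is one without a called peak.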

Other observations

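Of 12 other genes of RNA classes made by RNA polymerase III, RNase P RNA-like genes included, 3 were within 1 kb of a peak centre in thapsigargin and 1 in DMSO. Over all genes the shares were 8.45% and 0.702%. The 12 were picked by class and symbol, and they leave out the rRNA genes and the snRNA genes other than Rn7sk. Of all snRNA genes 3.09% were bound in thapsigargin. Rmrp, the RNA of RNase MRP, had a thapsigargin peak centre 359.5 bp away and a DMSO peak centre 67.0 kb away. Rny1, a Y RNA gene, had one 489 bp away in thapsigargin and 625.5 bp away in DMSO, while its neighbour Rny3 had them 6.95 kb and 7.08 kb away. Of the 7SL RNA genes, Rn7s2 had a thapsigargin peak centre 275.5 bp away and Rn7s1 9.26 kb away. The RNase P RNA gene Rpph1 (88.7 kb) and the 7SK gene Rn7sk (62.1 kb) had none in reach. Nor had the RNase P RNA-like genes Rprl1 (1465 kb), Rprl2 (108 kb) and Rprl3 (363 kb), the vault RNA gene Vaultrc5 (57.1 kb) or Bc1 (103 kb). In the table none of 63 rRNA genes, which are not among the 12, was bound in either treatment.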
